A study of Mus musculus with 8 samples.

Results

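Skeletal muscle keeps a small store of triglyceride in lipid droplets beside its mitochondria, and the 10 genes described here coat these droplets, fill them or empty them. They were taken by name from the deposited table, which lists 24033 genes. Plin2, Plin4 and Plin5 encode perilipins, the proteins of the droplet surface. Dgat1 and Dgat2 encode the acyltransferases that join the last fatty acid to diacylglycerol. Pnpla2 encodes the triglyceride lipase ATGL, Abhd5 its activator CGI-58 and G0s2 its protein inhibitor, while Lipe encodes hormone-sensitive lipase and Mgll monoglyceride lipase.

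In muscle, fatty acids from the blood are esterified into droplets between bouts of activity and released again when mitochondria burn fat. Release runs in sequence: ATGL cuts triglyceride, hormone-sensitive lipase cuts diacylglycerol and monoglyceride lipase cuts monoacylglycerol. Some perilipins hold CGI-58 away from ATGL until kinase signals free it, and perilipin 5 also ties droplets to mitochondria in oxidative tissue.

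RNA of the soleus, a slow oxidative muscle of the mouse hindlimb, was sequenced in 4 K15-SKO libraries (Myogenin-Cre/+;K15F/F) and 4 MyoCre libraries (Myogenin-Cre/+), from mice all 2 months old. Both genotypes carried the same Cre, which the myogenin gene drives in the muscle lineage, and the K15-SKO mice also carried floxed alleles of Klf15, a Kruppel-like transcription factor. Cells of the muscle that never express myogenin keep Klf15. The sources used here do not say whether a library is 1 mouse or a pool. The values are taken to be FPKM, fragments scaled by transcript length and library size, so levels of different genes can be compared.

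Depth estimated from the lowest values lay between 8070000 and 22600000 fragments per library. Klf15 itself measured 15.7, 19.3, 16.7 and 13.1 FPKM in K15-SKO muscle, against 44.5, 49.8, 49.1 and 22.8 FPKM in the MyoCre libraries (two-sided exact permutation test, p = 0.0286, the smallest that 70 assignments allow). The summed level of 11 muscle fibre markers, Myh7 and Mb among them, was 14033 to 30149 FPKM in K15-SKO and 14265 to 27540 FPKM in MyoCre muscle, and none of the 11 was at 0. K15-SKO replicate 3 stood apart on the first principal component and its median-of-ratios scaling factor was 0.80, where the rest had 0.96 to 1.16. The deepest library, MyoCre replicate 2, was also the 1 male by its Y-linked genes. Over the 12535 genes that averaged 1 FPKM or more the median log2 fold change was -0.12, and 77.0% of these genes had a negative one. Changes are therefore also given relative to that median.

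All 10 genes passed the filter, and 0 of them passed an adjusted p of 0.05 in either direction (limma, Benjamini-Hochberg over all genes tested). The share of all genes that passed was 0.183% lower and 0.367% higher. At an unadjusted p under 0.05, 3 of the 10 were lower in K15-SKO muscle (Plin5, Dgat2 and Plin2) and 0 were higher, where 3.43% of all genes were lower and 0.901% higher. This count over the 10 genes rested on single libraries. Leaving out K15-SKO replicate 4 or MyoCre replicate 3 brought it to 0. Leaving out MyoCre replicate 2 brought it to 1, with Plin5 the gene that stayed. Leaving out K15-SKO replicate 1 also brought it to 1, but that gene was G0s2, and Plin5, Dgat2 and Plin2 all dropped out. For none of the 10 did the K15-SKO values lie wholly outside the MyoCre values, against 2.72% of all genes lying wholly lower and 0.630% wholly higher. Of the 10, 8 had a negative fold change and 5 were lower than the all-gene median. The median of the 10 was -0.16, or -0.03 relative to all genes.

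**Figure D1:**
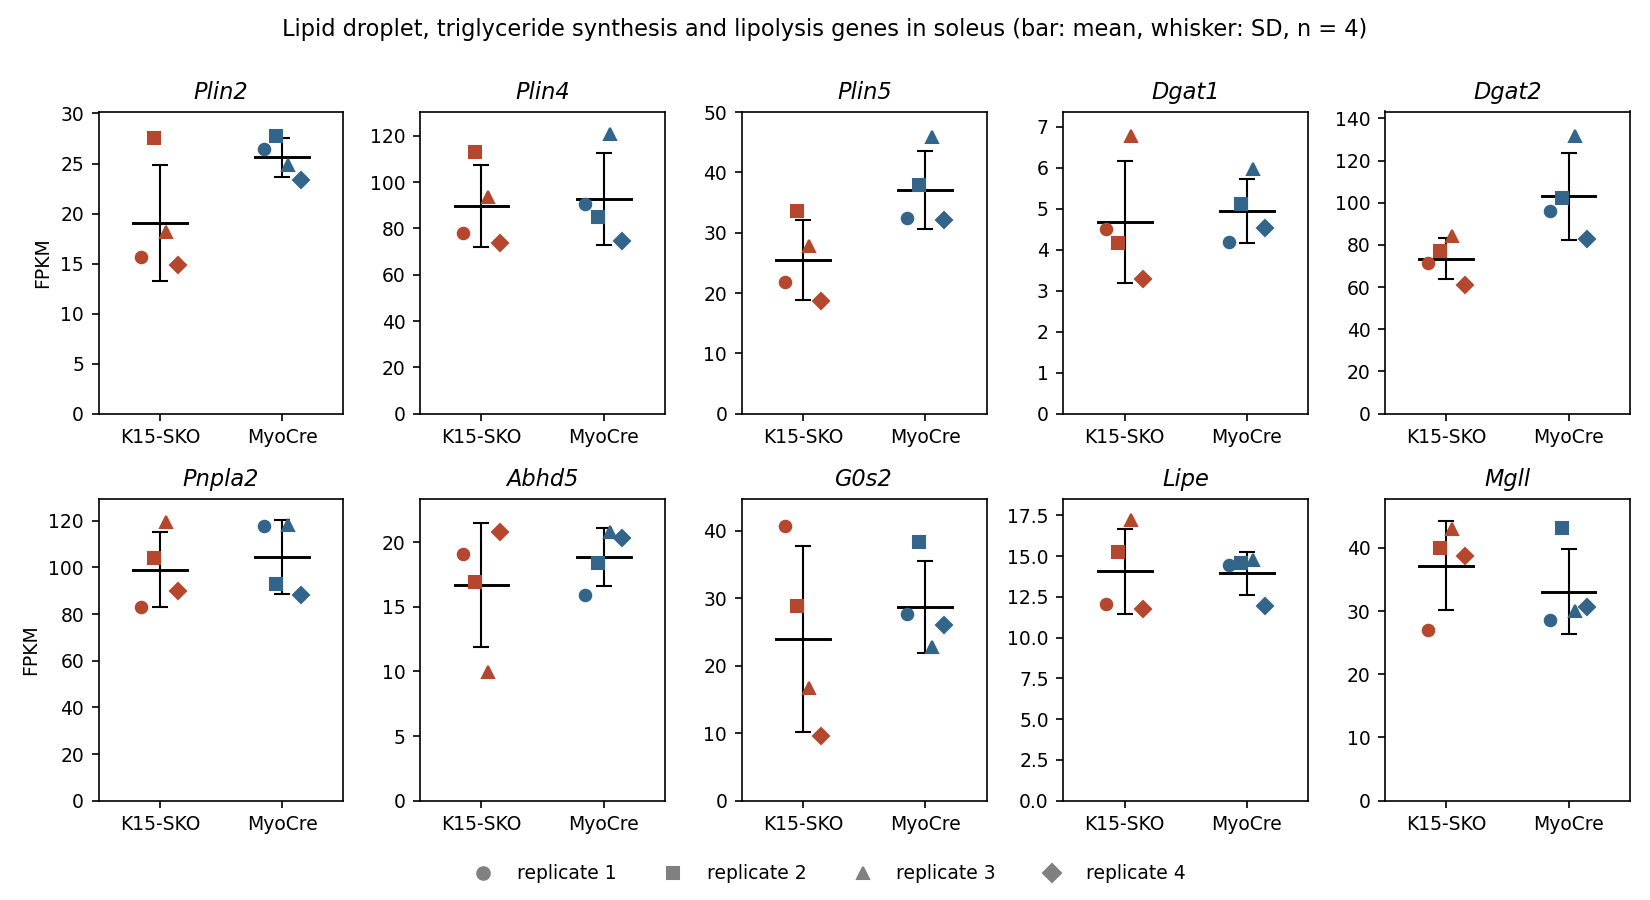
FPKM (y axes, from 0) of the 10 genes in each K15-SKO (left) and MyoCre (right) library, with marker shapes for replicate numbers, a bar for the mean and a whisker for the SD of 4 libraries. Plin5, Plin2 and Dgat2 have lower K15-SKO means with overlapping libraries, and G0s2 spreads from 9.57 to 40.7 FPKM within K15-SKO muscle.

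Among the 3 perilipins of the 10 genes, Plin5 had the lowest level relative to control, without passing the test over all genes. It measured 21.8, 33.6, 27.8 and 18.7 FPKM in K15-SKO replicates 1 to 4, against 32.5, 37.8, 45.9 and 32.1 FPKM in MyoCre replicates 1 to 4. A single K15-SKO library, replicate 2, exceeded the lowest MyoCre libraries, replicates 1 and 4. The means were 25.5 ± 6.59 FPKM in K15-SKO and 37.1 ± 6.44 FPKM in MyoCre muscle (SD, n = 4 each), 68.7% of control. The log2 fold change of -0.55 (SE 0.21, 95% interval -1.01 to -0.10) had a limma p of 0.0211 and an adjusted p of 0.890. It was -0.43 relative to the median of all genes, and 3.23% of the genes tested had a lower value.

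Plin2, the perilipin found on droplets of most cell types, gave a similar picture. Its K15-SKO libraries held 15.7, 27.5, 18.1 and 14.9 FPKM and its MyoCre libraries 26.4, 27.8, 24.9 and 23.3 FPKM. In K15-SKO muscle 3 libraries lay below every MyoCre library, and replicate 2 lay among them. The K15-SKO mean was 19.1 ± 5.81 FPKM and the MyoCre mean 25.6 ± 1.91 FPKM, 74.4% of control. Its log2 fold change was -0.46 (SE 0.20, 95% interval -0.90 to -0.01), with a limma p of 0.0439 and an adjusted p of 0.957. The 4 MyoCre libraries differed little, with a coefficient of variation of 7.46%, against 30.5% in K15-SKO muscle.

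Plin4, which coats small droplets with a long repeat region, was the most abundant perilipin, and its estimate lay near 0. Its values were 77.9, 113, 93.6 and 73.9 FPKM in K15-SKO muscle and 90.5, 84.9, 121 and 74.4 FPKM in MyoCre muscle. These ranges nearly coincide. The estimate was -0.05 on the log2 scale (SE 0.20, 95% interval -0.48 to 0.39, limma adjusted p = 0.981), and its sign turned to 0.09 after median-of-ratios scaling.

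Plin4 and Plin5 are neighbours. In the GENCODE M21 annotation of mm10, Plin4 spans chromosome 17 from 56100591 to 56109803 and Plin5 from 56111601 to 56117596, both on the minus strand, with a gap of 1797 bases that holds 0 annotated genes. The ratio of Plin5 to Plin4 in a library, which does not depend on how libraries are scaled, was 0.280, 0.297, 0.297 and 0.253 in K15-SKO muscle and 0.359, 0.445, 0.380 and 0.431 in MyoCre muscle. All 4 K15-SKO ratios lay below all 4 MyoCre ratios. This ratio was chosen after the values were seen and was not tested. It is not the only pair to separate: Dgat2 was above Plin4 in 0 of 4 K15-SKO and 4 of 4 MyoCre libraries. The ratios of Plin5 to Mgll, Plin5 to Lipe and Dgat2 to Lipe were also lower in every K15-SKO library than in any MyoCre library. Separation is therefore not particular to the neighbours Plin4 and Plin5. How often other pairs of genes separate in this way was not counted.

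To set the neighbours side by side, the 250 bases upstream of each RefSeq start are shown (GRCm38.p6, minus strand, 5′ to 3′), together with those of Plin2. Capitals mark CACCC or its reverse GGGTG, the core of the CACCC boxes that Kruppel-like factors are known to bind. The windows are chr17:56117549-56117798 for Plin5, chr17:56109783-56110032 for Plin4 and chr4:86670060-86670309 for Plin2.
Plin5: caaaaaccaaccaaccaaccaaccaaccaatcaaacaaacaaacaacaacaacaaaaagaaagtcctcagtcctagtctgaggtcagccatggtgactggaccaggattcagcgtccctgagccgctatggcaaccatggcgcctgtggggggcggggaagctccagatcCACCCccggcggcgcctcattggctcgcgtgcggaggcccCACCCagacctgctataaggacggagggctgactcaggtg
Plin4: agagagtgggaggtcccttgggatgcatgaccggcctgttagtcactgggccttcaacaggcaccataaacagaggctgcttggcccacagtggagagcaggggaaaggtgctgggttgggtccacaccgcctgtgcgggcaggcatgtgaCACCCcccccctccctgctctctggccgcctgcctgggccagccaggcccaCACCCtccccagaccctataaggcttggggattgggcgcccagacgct
Plin2: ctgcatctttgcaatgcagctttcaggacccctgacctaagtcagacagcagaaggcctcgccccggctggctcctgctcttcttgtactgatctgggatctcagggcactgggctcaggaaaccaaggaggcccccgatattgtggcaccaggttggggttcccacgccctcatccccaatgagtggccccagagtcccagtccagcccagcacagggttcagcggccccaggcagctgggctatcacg
Plin5 and Plin4 each hold 2 matches and Plin2 holds 0, searched on both strands. Of 32851 such windows in the RefSeq table, 52.0% hold at least 1 match and 21.1% at least 2. A second annotated Plin5 start lies just downstream, and its window holds 4. The nuclear receptor half-site AGGTCA, on either strand, occurs in the Plin5 window shown, in those of Plin2 and Abhd5 and in 14% of all windows. These matches describe the letters alone, and binding was not measured.

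As a share of the summed FPKM of Plin1 to Plin5, Plin5 made up 14.6% ± 0.908 in K15-SKO and 18.8% ± 1.35 in MyoCre muscle. The 4 K15-SKO shares ran from 13.9% to 15.9% and the 4 MyoCre shares from 16.8% to 19.8%, without overlap. These shares were not tested. Plin4 is the largest part of the sum, so the Plin5 share is not independent of the ratio of Plin5 to Plin4 given above. The FPKM values of Plin5 itself overlapped between the genotypes. Plin4 made up 52.1% ± 3.46 in K15-SKO and 46.6% ± 2.76 in MyoCre muscle, and Plin2 made up 10.9% ± 0.881 in K15-SKO and 13.2% ± 1.89 in MyoCre muscle. The widely expressed Plin3 made up 21.6% ± 3.60 in K15-SKO and 20.3% ± 1.66 in MyoCre muscle. Plin1, the perilipin of fat cells, stayed at 0.714% ± 0.314 in K15-SKO and 1.12% ± 0.330 in MyoCre muscle (SD, n = 4 each). The summed level was 173.3 ± 42.0 FPKM in K15-SKO and 197.6 ± 32.1 FPKM in MyoCre muscle.

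The ratio of Plin4 to Plin2 was 4.96, 4.10, 5.16 and 4.97 in K15-SKO and 3.43, 3.06, 4.85 and 3.19 in MyoCre libraries. MyoCre replicate 3 alone fell within the K15-SKO range. The difference of 0.42 on the log2 scale had a two-sided exact permutation p of 0.0571, or 0.300 adjusted over the 7 ratios tested. Plin5 to Plin2 did not separate the genotypes, with 1.22 to 1.53 in K15-SKO and 1.23 to 1.84 in MyoCre libraries (exact permutation p = 0.657).

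**Figure D2:**
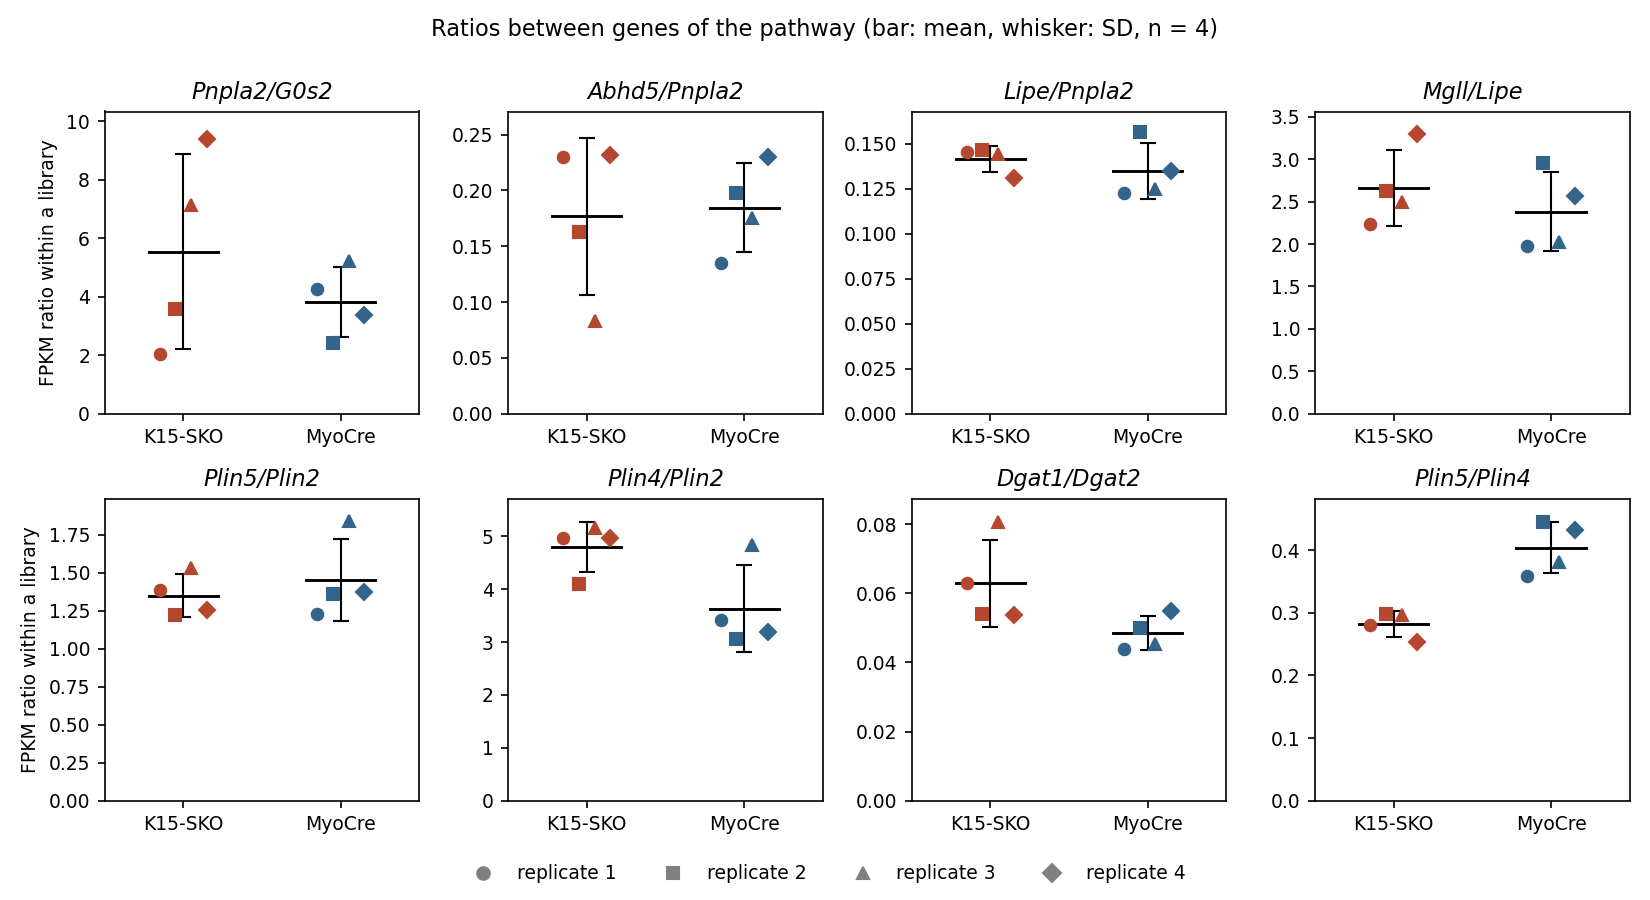
Ratio of the FPKM of 2 genes within each library (y axes, from 0, no unit) in K15-SKO (left) and MyoCre (right) muscle, with marker shapes for replicate numbers, a bar for the mean and a whisker for the SD of 4 libraries. The 4 K15-SKO values of Plin5/Plin4 sit between 0.253 and 0.297, below the 4 MyoCre values of 0.359 to 0.445. The other 7 ratios shown overlap, and Plin5/Plin4 was chosen after the values were seen and was not tested.

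Of the acyltransferases, Dgat2 was among the most abundant of the 10 genes and had a lower K15-SKO mean. Its K15-SKO libraries held 71.5, 77.0, 84.0 and 61.0 FPKM, against 95.8, 102, 132 and 82.7 FPKM in MyoCre libraries. The overlap came from 1 pair of values, K15-SKO replicate 3 above MyoCre replicate 4. Means of 73.4 ± 9.72 FPKM in K15-SKO and 103 ± 20.7 FPKM in MyoCre muscle (SD, n = 4 each) gave 71.2% of control. The log2 fold change was -0.48 (SE 0.19, 95% interval -0.88 to -0.07), with a limma p of 0.0255 and an adjusted p of 0.937. Dgat2 lies on chromosome 7 from 99153658 to 99182719 (mm10).

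Dgat1, unrelated to Dgat2 in sequence and able to use further substrates, was the least abundant of the 10. It had 4.51, 4.17, 6.77 and 3.28 FPKM in K15-SKO and 4.19, 5.10, 5.97 and 4.53 FPKM in MyoCre libraries. The K15-SKO libraries spanned the whole MyoCre range, with a log2 fold change of -0.10 (SE 0.21, limma adjusted p = 0.958) that became 0.03 after median-of-ratios scaling. Dgat1 stood at 0.0630, 0.0541, 0.0806 and 0.0538 of the Dgat2 level in K15-SKO libraries and at 0.0438, 0.0499, 0.0453 and 0.0548 of it in MyoCre libraries. That ratio had an exact permutation p of 0.0857 (adjusted over the 7 ratios, 0.300).

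Scaling bears on the 3 lowest genes. After median-of-ratios scaling Plin5, Dgat2 and Plin2 had log2 fold changes of -0.42, -0.34 and -0.32 and unadjusted limma p-values of 0.0568, 0.0786 and 0.110, so 0 of the 10 stayed under 0.05. K15-SKO replicate 3, which that scaling raises most, then held 105 FPKM of Dgat2, inside the MyoCre range as it was before. Its Plin5 level was then 34.8 FPKM, inside the MyoCre range only after scaling. K15-SKO replicate 2, inside that range for Plin5 before, then lay just below it, at 31.5 FPKM against 31.7 FPKM in MyoCre replicate 1.

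None of the 5 lipolysis genes had an unadjusted limma p under 0.05 in the main fit. In other fits, Pnpla2 had a limma p of 0.0437 (adjusted 0.427) with libraries weighted. G0s2 had a limma p of 0.0404 (adjusted 0.920) without K15-SKO replicate 1. Pnpla2 was the most abundant of the 10 in both genotypes, with 83.0, 104, 119 and 89.8 FPKM in K15-SKO and 118, 93.0, 118 and 88.3 FPKM in MyoCre libraries. The ranges coincide, and the log2 fold change of -0.08 (SE 0.18, 95% interval -0.48 to 0.32, limma adjusted p = 0.962) became 0.06 after median-of-ratios scaling. Lipe had 12.1, 15.2, 17.2 and 11.8 FPKM in K15-SKO and 14.5, 14.6, 14.8 and 11.9 FPKM in MyoCre libraries, a log2 fold change of 0.00 (SE 0.18, 95% interval -0.39 to 0.39, adjusted p = 1.00).

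The profiles of both lipases over the libraries were close. Lipe stood at 0.145, 0.147, 0.144 and 0.131 of Pnpla2 in K15-SKO and at 0.123, 0.157, 0.125 and 0.135 of it in MyoCre libraries (exact permutation p = 0.486). Of all pairs among the 10 genes, these had the closest profiles, with a root mean square difference of 0.11 between their centred log2 values over the 8 libraries.

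Mgll had the highest estimate of the 10 and did not pass the test. Its libraries held 27.0, 40.0, 43.0 and 38.7 FPKM in K15-SKO and 28.6, 43.1, 29.9 and 30.6 FPKM in MyoCre muscle. The other 3 MyoCre libraries lay between 28.6 and 30.6 FPKM and replicate 2, the male, was as high as the highest K15-SKO library. The log2 fold change was 0.17 (SE 0.20, 95% interval -0.27 to 0.60, limma adjusted p = 0.957), or 0.29 relative to the median of all genes, above 92.6% of them. The ratio of Mgll to Lipe was 2.24 to 3.29 in K15-SKO and 1.97 to 2.96 in MyoCre libraries (exact permutation p = 0.429).

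Abhd5, the ATGL activator, had 19.1, 16.9, 9.92 and 20.8 FPKM in K15-SKO and 15.9, 18.4, 20.8 and 20.3 FPKM in MyoCre libraries. Replicate 3 of K15-SKO was the sole library well below the rest. The estimate of -0.21 on the log2 scale (SE 0.23, limma adjusted p = 0.957) was 0.01 without that library. Its ratio to Pnpla2 was 0.0831 to 0.232 in K15-SKO and 0.135 to 0.230 in MyoCre libraries (exact permutation p = 0.800), with a log2 difference of -0.14 that turned to 0.18 without K15-SKO replicate 3.

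G0s2, the ATGL inhibitor, varied more than any other of the 10 within K15-SKO muscle. It had 40.7, 28.9, 16.7 and 9.57 FPKM there, a coefficient of variation of 57.2%, and 27.7, 38.4, 22.7 and 26.1 FPKM in MyoCre muscle, where the coefficient was 23.6%. Replicates 1 and 4 of K15-SKO lay above and below the whole MyoCre range. The log2 fold change of -0.42 (SE 0.39, 95% interval -1.29 to 0.44, limma adjusted p = 0.957) is the least precise of the 10. It ran from -0.74 without K15-SKO replicate 1 to -0.06 without K15-SKO replicate 4. Lipase over inhibitor, the ratio of Pnpla2 to G0s2, was 2.04, 3.60, 7.16 and 9.38 in K15-SKO and 4.26, 2.42, 5.22 and 3.39 in MyoCre libraries (exact permutation p = 0.543). Its log2 difference of 0.36 was 0.76 without K15-SKO replicate 1 and 0.03 without K15-SKO replicate 4. G0s2 lies wholly inside the span of Lamb3 on the opposite strand of chromosome 1, and Lamb3 measured 0.594 to 1.80 FPKM. Lipe likewise lies inside the antisense gene 4732471J01Rik, at 0.177 to 0.617 FPKM. Without a stated strand setting, reads of such partners cannot be told apart.

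The G0s2 promoter is shown because it is the richest of the 8 genes with a RefSeq window in CACCC matches, which are in capitals. It is chr1:193273189-193273438 (GRCm38.p6, minus strand, 250 bases upstream of the start, 5′ to 3′).
G0s2: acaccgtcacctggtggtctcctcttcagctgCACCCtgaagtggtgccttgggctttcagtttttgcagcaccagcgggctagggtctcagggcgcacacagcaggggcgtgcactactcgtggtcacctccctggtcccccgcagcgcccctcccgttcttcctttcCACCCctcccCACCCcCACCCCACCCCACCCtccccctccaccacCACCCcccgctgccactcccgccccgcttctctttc
It holds 7 matches that do not overlap, and 0.0974% of all windows hold 7 or more. That share is for any single window, whereas this one was picked as the richest of 11. Binding was not measured. Pnpla2 holds 1 match and Abhd5 0, Mgll and Lipe have 2 windows each with at most 1 match in a window, and Dgat1 and Dgat2 had no window in that table.

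**Figure D3:**
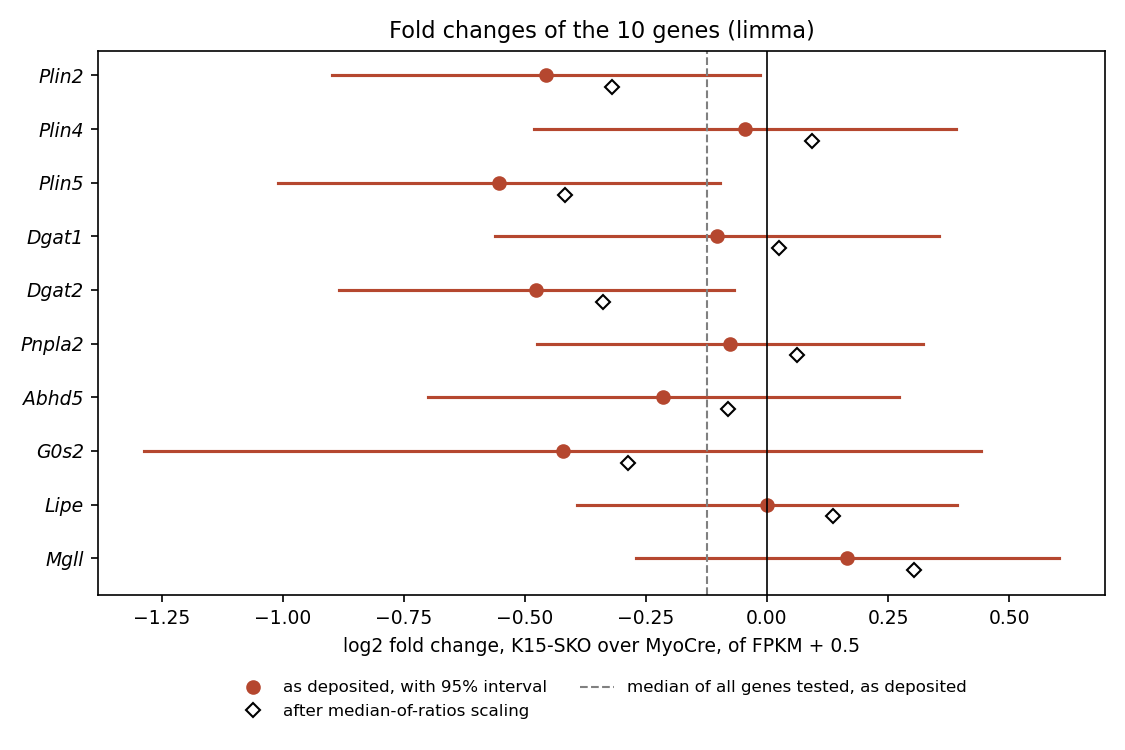
Log2 fold change of FPKM + 0.5 (x axis, K15-SKO over MyoCre) for each gene, with its limma 95% interval (filled circles and lines) and the value after median-of-ratios scaling (open diamonds). The dashed line is the median of all genes tested, -0.12, and the intervals of Plin2, Plin5 and Dgat2 end below 0 before scaling while those of the other 7 include it.

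By mean level, the 10 genes stood in tiers with the same genes in both genotypes. Pnpla2, Dgat2 and Plin4 averaged 73.4 to 99.1 FPKM in K15-SKO and 92.6 to 104 FPKM in MyoCre muscle, and Plin4 exceeded Plin5 in 8 of 8 libraries. Plin5, Mgll, G0s2 and Plin2 followed with 19.1 to 37.2 FPKM in K15-SKO and 25.6 to 37.1 FPKM in MyoCre muscle, then Abhd5 and Lipe with 14.1 to 16.7 FPKM in K15-SKO and 13.9 to 18.8 FPKM in MyoCre muscle, and Dgat1 last, below Lipe in 8 of 8 libraries. Single libraries crossed these tiers and changed the order within them. Plin2 was above Abhd5 in 2 of 4 K15-SKO and 4 of 4 MyoCre libraries, and G0s2 was below Lipe in K15-SKO replicate 4. Dgat2 was below Plin4 in 4 of 4 K15-SKO libraries and above it in 4 of 4 MyoCre libraries, and Plin5 was above Mgll in 0 of 4 K15-SKO and 3 of 4 MyoCre libraries. These orders were seen in the data and were not tested.

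Genes whose profiles over the 8 libraries were most like that of the gene with the smallest p in each role were found by the root mean square difference of centred log2 values. They were picked as the closest of all genes tested, so differences far below the median follow from the choice. The profiles include the difference between genotypes, so similar fold changes follow from it as well. Whether these genes are linked was not tested. For Plin5 the closest was Acaa2, a thiolase of mitochondrial fatty acid oxidation. Its difference was 0.06, against a median of 0.41 over all genes. Acaa2 had 139, 199, 169 and 122 FPKM in K15-SKO and 205, 224, 261 and 185 FPKM in MyoCre libraries (log2 fold change -0.49, limma adjusted p = 0.937). Itgb1bp2, the muscle protein melusin, and Il11ra1, an interleukin 11 receptor chain, followed at 0.08 and 0.10. Dgat2 was closest to Nt5m, a mitochondrial nucleotidase, at 0.06, then Ilvbl at 0.09 and Zfp446 at 0.10, against a median of 0.37. G0s2 had no neighbour as close: A330094K24Rik, the stress transcription factor gene Ddit3 and Sncg lay at 0.28, 0.29 and 0.30, against a median of 0.62. Between Plin5 and Dgat2 themselves the difference was 0.16.

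The wider pathway was read from 3 lists, and 0 genes of any list passed over all genes tested. Outside the 10 genes, the lists held 37 tested genes, of which 32 had negative fold changes, 26 of them under the all-gene median. Their median was -0.19, or -0.07 relative to all genes, and 2 were lower at an unadjusted p under 0.05 and 0 higher. Over all genes, 3.43% were lower and 0.901% higher at that p, and 77.0% had a negative fold change. Of the 37, Fitm2 alone had K15-SKO values wholly below its MyoCre values, where 2.72% of all genes did, so that count stands at the background.

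Among 12 further genes of droplet coat and formation, 9 were negative. Fitm2 encodes an endoplasmic reticulum protein needed for droplets to form. It had 51.2, 53.9, 38.1 and 55.6 FPKM in K15-SKO and 56.1, 60.7, 74.4 and 61.5 FPKM in MyoCre libraries. The log2 fold change was -0.35, with an SE of 0.18, a limma p of 0.0763 and an adjusted p of 0.957. The nearest libraries were 55.6 FPKM in K15-SKO replicate 4 and 56.1 FPKM in MyoCre replicate 1, and after median-of-ratios scaling the ranges overlapped, at 47.8 to 58.2 FPKM in K15-SKO and 54.8 to 64.4 FPKM in MyoCre muscle. Its muscle paralogue Fitm1 was more abundant, with 238 ± 24.9 FPKM in K15-SKO and 252 ± 28.3 FPKM in MyoCre muscle, and its log2 fold change was -0.08 (limma adjusted p = 0.958). Plin1 measured 1.74, 1.72, 1.14 and 0.454 FPKM in K15-SKO and 2.28, 1.73, 2.03 and 2.53 FPKM in MyoCre libraries. Its log2 fold change was -0.65, with a limma p of 0.0267 and an adjusted p of 0.940. Cidea, which promotes droplet fusion, measured 2.19 ± 0.524 FPKM in K15-SKO and 3.16 ± 0.842 FPKM in MyoCre muscle.

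Of 14 further genes of triglyceride synthesis, 13 were negative, and their median was -0.24, or -0.12 relative to all genes. Lpin1, the phosphatidate phosphatase that makes diacylglycerol, measured 53.2, 56.7, 30.1 and 45.0 FPKM in K15-SKO and 64.3, 63.4, 61.0 and 49.4 FPKM in MyoCre libraries. Its log2 fold change was -0.39, with an SE of 0.21, a limma p of 0.0876 and an adjusted p of 0.957. Replicate 3 was the lowest of the K15-SKO libraries, and replicate 4 the lowest of MyoCre. The acyltransferase Agpat2 had 5.87 ± 1.52 FPKM in K15-SKO and 7.49 ± 0.908 FPKM in MyoCre muscle, and Gpd1l, which makes glycerol phosphate, 10.8 ± 0.764 FPKM in K15-SKO and 13.2 ± 2.46 FPKM in MyoCre muscle. The exception in sign was Gpd1, the main cytosolic glycerol phosphate dehydrogenase, with a log2 fold change of 0.24 (adjusted p = 0.957).

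Lipolysis genes outside the 10 numbered 12 tested, with 10 negative and a median of -0.17, or -0.05 relative to all genes. Ces1d, a carboxylesterase with triglyceride lipase activity that is abundant in fat, had 2.24, 3.50, 1.19 and 1.05 FPKM in K15-SKO and 2.58, 2.28, 5.09 and 3.48 FPKM in MyoCre libraries. Its log2 fold change was -0.68, with an SE of 0.31, a limma p of 0.0491 and an adjusted p of 0.957. The K15-SKO and MyoCre ranges overlap. The phosphodiesterase Pde3b, which carries the insulin signal against lipolysis, had 1.22 ± 0.421 FPKM in K15-SKO and 1.65 ± 0.208 FPKM in MyoCre muscle. Abhd6, a monoacylglycerol lipase, had 1.09 ± 0.277 FPKM in K15-SKO and 1.46 ± 0.277 FPKM in MyoCre muscle.

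**Figure D4:**
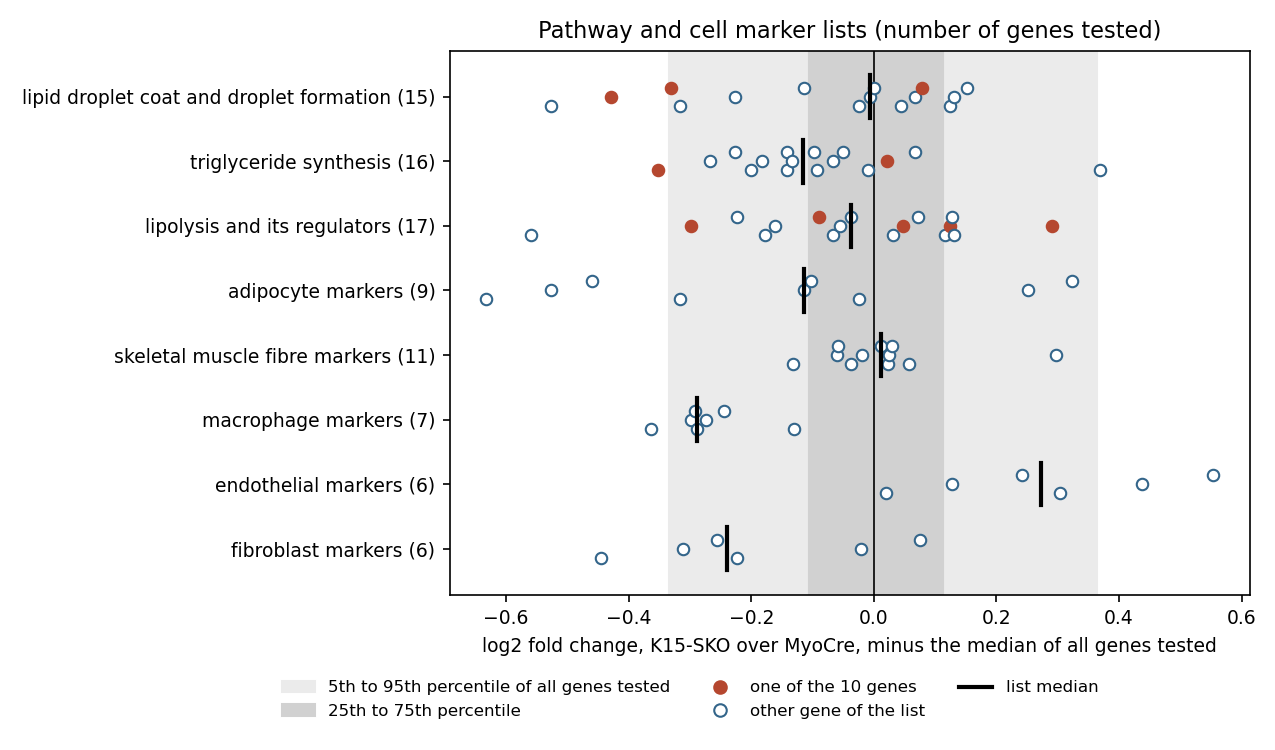
Log2 fold change (K15-SKO over MyoCre) minus the median of all genes tested (x axis) for every tested gene of the 3 pathway lists and 5 cell marker lists, with list medians as black bars and grey bands for the spread of all genes. Filled circles are among the 10 genes, and the pathway medians lie between -0.12 and -0.01, while macrophage and fibroblast medians lie lower and the endothelial median higher.

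Fat cells between the fibres also express these genes. Of 13 fat cell markers 9 were tested, 7 of them negative and 0 passing over all genes. Of the 9, 1 was lower at an unadjusted limma p under 0.05, where 3.43% of all genes were. That gene was Plin1, already given above with the droplet coat genes. None of the 13 was at 0 in every library. Their summed level was 263 to 517 FPKM in K15-SKO and 272 to 358 FPKM in MyoCre muscle, mostly Fabp4, which capillary cells share. Without Fabp4 the sum was 21.7 to 71.6 FPKM in K15-SKO and 51.9 to 77.9 FPKM in MyoCre muscle. Fabp4 averaged 312 ± 101 FPKM in K15-SKO and 264 ± 39.3 FPKM in MyoCre muscle, and Cfd 25.02 ± 13.7 FPKM in K15-SKO and 38.3 ± 8.76 FPKM in MyoCre muscle. Thrsp averaged 8.04 ± 4.10 FPKM in K15-SKO and 6.97 ± 2.43 FPKM in MyoCre muscle. Adipoq, the fat cell hormone adiponectin, measured 4.06, 6.01, 2.86 and 1.60 FPKM in K15-SKO and 3.18, 4.60, 7.14 and 6.88 FPKM in MyoCre libraries. K15-SKO replicate 4 was the lowest of the 8 libraries for 7 of the 10 genes, all but Pnpla2, Abhd5 and Mgll. It was also the lowest for 6 of the 9 tested fat cell markers and for 15% of all genes tested. In whole muscle, fewer cells of a type and less RNA per cell cannot be told apart, and the part of fat cells in the values of the 10 genes was not tested.

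Macrophages, which express Plin2, also varied. All 7 of their markers had negative fold changes, 0 passing over all genes and 0 with an unadjusted limma p under 0.05. Their sum was 33.7 to 75.4 FPKM in K15-SKO and 67.9 to 77.8 FPKM in MyoCre muscle. The 6 fibroblast markers were all negative, with a sum of 394 to 685 FPKM in K15-SKO and 529.6 to 921 FPKM in MyoCre muscle. Of these 6, Col1a2 alone was lower at an unadjusted limma p under 0.05, where 3.43% of all genes were. Of 6 endothelial markers 5 were positive and 0 passed over all genes, with sums of 109 to 134 FPKM in K15-SKO and 83.8 to 117 FPKM in MyoCre muscle. Among these, Cdh5 was wholly higher, with 29.1 to 31.8 FPKM in K15-SKO and 18.3 to 27.1 FPKM in MyoCre libraries (limma adjusted p = 0.948), where 0.630% of all genes were wholly higher. It was also the 1 endothelial marker higher at an unadjusted limma p under 0.05, where 0.901% of all genes were. None of these markers was at 0 in every library, and their part in the results was not tested.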

How the data were processed

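The authors deposited 1 table of 24033 genes by 8 libraries, whose values are taken to be FPKM because they are not whole, do not share a total and were made with Cufflinks and Cuffdiff after STAR on mm10, per the submitters' processing notes. Not given in the sources used here were versions, annotation release, strand setting, filters and how libraries were scaled. The table holds 0 further columns. Libraries were assigned to genotype and replicate by their titles.

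Here log2(FPKM + 0.5) was fitted in limma 3.58.1 (R 4.3.3) with genotype alone, a variance trend and robust estimation, for genes averaging 1 FPKM or more. Fold changes on this scale understate those of low genes. Tests are two-sided and adjusted by Benjamini-Hochberg over every gene in the fit, and the threshold was 0.05. The fit was tested on simulated data. The 7 ratios of 2 genes within a library were compared by exact permutation of the libraries. Nothing says that the libraries come from separate mice, so p-values measure the spread between libraries.

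Depth was estimated by taking the densest point among the lowest values of FPKM times length, in single-transcript genes over 1 kb, as 1 fragment. It covers counting error only, and no counts were recovered.

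The 10 genes, the lists and the ratios were chosen with earlier results of these data known. The text names, besides the 10 genes and Klf15, the 3 genes of each pathway list with the smallest p, list genes whose libraries do not overlap, the 3 most abundant fat cell markers, and the 3 genes most like Plin5, Dgat2 and G0s2. Others named, Fitm1, Plin3, Gpd1, Adipoq, Cdh5, Col1a2, Lipa and kinase genes among them, were chosen after their values were seen. Alternatives were other pseudocounts (1 and 0.1), dropping the filter or raising it to 5 FPKM, leaving out genes listed at 0 in 1 genotype, 3 scalings, no robust estimation, library weights, a replicate block, and leaving out libraries. Sequences come from RefSeq on GRCm38.p6, which gave windows for 8 of the 10 genes.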

Additional observations from a re-analysis of the deposited data

Results flagged for a closer look

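Of 36 groups of 4 values, from the 10 genes, Klf15 and the 7 ratios in each genotype, 3 held a value far from the rest, where 1 in 20 groups, or 1.8, would by chance. The gap from that value to its nearest neighbour took more than 0.829 of the group's range in each. Lipe in MyoCre replicate 4 was low at 11.9 FPKM, against 14.5 to 14.8 FPKM in the other MyoCre libraries. Mgll in MyoCre replicate 2, the male and deepest library, was high at 43.1 FPKM, against 28.6 to 30.6 FPKM. Lipe stood at 0.131 of Pnpla2 in K15-SKO replicate 4, against 0.144 to 0.147 in the other K15-SKO libraries.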

How the results depend on the processing

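The count of 0 of the 10 genes past the threshold held in all 21 alternative fits, Dgat1 being absent at a minimum mean of 5 FPKM. Some of these fits were chosen after seeing the data. They left out K15-SKO replicate 3 with MyoCre replicate 2, or replicate 4 of both genotypes. Dgat2, Plin5 and Plin2 came closest with library weights, with adjusted p-values of 0.0923, 0.0958 and 0.126, and kept negative fold changes in all 21 fits, of -0.57 to -0.34, -0.70 to -0.42 and -0.64 to -0.32. The count over all genes was 69 (23 lower, 46 higher), all 46 listed at 0 in MyoCre. It became 39 at a minimum mean of 5 FPKM, 12 without genes listed at 0 in 1 genotype and 157 with library weights, and ranged from 59 to 80 when 1 library was left out.

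Some signs turned, and not only those of estimates near 0. After median-of-ratios, upper-quartile and quantile scaling, the log2 fold change of Plin4 was 0.093, 0.086 and 0.075, of Pnpla2 0.061, 0.055 and 0.031, and of Dgat1 0.026, 0.020 and 0.017. With library weights it was 0.050 for Abhd5, -0.17 for Lipe and -0.088 for Mgll. For G0s2 it was then 0.18, against -0.42 in the main fit. Leaving out 1 library gave -0.16 to 0.089 for Plin4, -0.17 to 0.0030 for Pnpla2, -0.28 to 0.034 for Dgat1, -0.33 to 0.0098 for Abhd5 and -0.099 to 0.078 for Lipe. In an alternative chosen after seeing the data, without K15-SKO replicate 3 and MyoCre replicate 2, Abhd5 had 0.00041 and Lipe -0.076. The log2 difference of Pnpla2/G0s2 was then -0.042 and that of Abhd5/Pnpla2 0.22. Over single left-out libraries that of Abhd5/Pnpla2 ran from -0.31 to 0.18 and that of Plin5/Plin2 from -0.17 to 0.024. The causes were not tested.

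Klf15 was lower in every fit. Its mean difference of -25.4 FPKM (-31.6 to -22.7 without 1 library) can reach no exact p below 0.0571 with 3 against 4 libraries, or 0.125 as 4 pairs. Its limma call held in 8 of 21 alternatives. Same-numbered libraries deviated from their group means with correlations of 0.10, 0.23, 0.00 and 0.28 for replicates 1 to 4. The numbers were not taken as pairs, because the labels do not say that they mark pairs. Replicate 3 showed no shared deviation, but it holds the K15-SKO library that stood apart, so it says little about pairing. That 5 of 8 libraries correlated best with their own number is a hint of pairing from the data, not the design. Fibre marker sums in K15-SKO and MyoCre were 23876 and 23717 FPKM for replicate 1, 30149 and 27540 for replicate 2 and 14033 and 14265 for replicate 4. For replicate 3 they were 17483 and 24324 FPKM. With the replicate block the count over all genes was 78 and 0 of the 10 genes passed, and Plin5, Dgat2 and Plin2 had unadjusted limma p-values of 0.00860, 0.0104 and 0.0280 and adjusted ones of 0.455, 0.507 and 0.725. No counts were recovered, so what depth limits was not compared between genes.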

Other observations

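Genes of protein kinase A signalling and of lysosomal lipid breakdown were also measured, and none of those given here passed the test. Prkaca, a catalytic subunit of protein kinase A, averaged 44.6 ± 1.74 FPKM in K15-SKO and 44.8 ± 6.34 FPKM in MyoCre libraries (SD, n = 4 each). The estimate for Prkaca was 0.00 on the log2 scale (SE 0.17, limma adjusted p = 0.999). Its regulatory partner Prkar1a had a log2 fold change of -0.09 (SE 0.19, adjusted p = 0.957), which lies 0.03 above the median of all genes. Lipa, the acid lipase that takes lipid in lysosomes, averaged 6.48 ± 1.70 FPKM in K15-SKO and 6.48 ± 1.35 FPKM in MyoCre libraries (log2 fold change -0.01, adjusted p = 0.997).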
